A study of Sus scrofa with 15 samples.

Results

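Blood microRNAs (miRNAs) of newborn pigs were compared with those of pigs aged 60 days. The comparison covered all 293 miRNAs kept of the 295 listed, in 6 of the 15 small RNA libraries of the series: 3 from day 0 and 3 from day 60. miR-199b-3p and miR-9-1 were dropped because they repeated miR-199a-3p and miR-9 in every library. The series profiled peripheral whole blood of the domestic pig (Sus scrofa) at 5 ages, with 3 biological replicates per age according to its design text. Newborn animals (day 0) formed the first group and animals described as being in childhood (day 60) the other, and the labels give no treatment, breed, sex or animal number. The labels therefore do not tie a library to a litter or a sampling day. The p-values rest on the spread between libraries of the same age, estimated over all 15 libraries.

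Mature miRNAs are short RNAs that guide Argonaute proteins to messenger RNAs, which lowers the output of their targets. Most miRNA in whole blood comes from blood cells, and red cell precursors, lymphocytes, granulocytes, monocytes and platelets each carry a characteristic set. Birth is followed by the replacement of fetal by postnatal blood cell production, by the rise in oxygen supply and by exposure to microbes. In bulk blood, fewer cells of a type and less RNA per cell cannot be told apart, and a level is a share of the miRNA reads of a library.

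The deposited counts summed to between 5774130 and 9357829 per newborn library and to between 8226541 and 8752570 per day 60 library. At least 1 count was listed for 255 to 268 miRNAs in newborn libraries and for 249 to 255 at day 60. Newborn replicate 3 stood apart from the other newborn libraries: the median absolute log2 difference over the tested miRNAs was 1.72 to replicate 1 and 1.56 to replicate 2, while replicates 1 and 2 differed by 0.35. Its distance to the day 60 libraries was 0.791, 0.818 and 0.992. Day 60 libraries differed from each other by 0.33 to 0.554. Calls are therefore given with all 3 newborn libraries and, for the results described below, also without replicate 3; means and SDs cover all 3.

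The composition of the libraries showed where newborn replicate 3 differed. miR-451, the erythroid miRNA that matures through Argonaute 2 without Dicer, held 7.47%, 8.97% and 59.4% of the counts in newborn replicates 1, 2 and 3 and 34.5%, 36.9% and 31.4% at day 60. Newborn replicates 1 and 2 lay below every day 60 library and replicate 3 above all of them. miR-92a, a member of the miR-17-92 cluster expressed in blood progenitors and red cells, held 19.7%, 18.7% and 1.56% in newborns and 3.91%, 4.80% and 5.08% at day 60, so replicate 3 again lay on the far side of the day 60 libraries. The ratio of miR-451 to miR-23a, used in plasma and serum as an index of red cell content, was 131, 101 and 769 in newborns and 728, 374 and 633 at day 60. All 6 miRNAs of the erythroid list (miR-451, miR-144, miR-486, miR-96-5p, miR-182 and miR-183) together held 19.99%, 16.1% and 60.9% of counts in newborns and 37.0%, 40.0% and 34.2% at day 60, with none at 0 in all libraries. With the miRNAs above 10% of the counts of any library left out, 45 miRNAs changed against 48 with all miRNAs. The same step without newborn replicate 3 gave 102 changes (50 rises and 52 falls) against 112 (47 and 65).

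**Figure D1:**
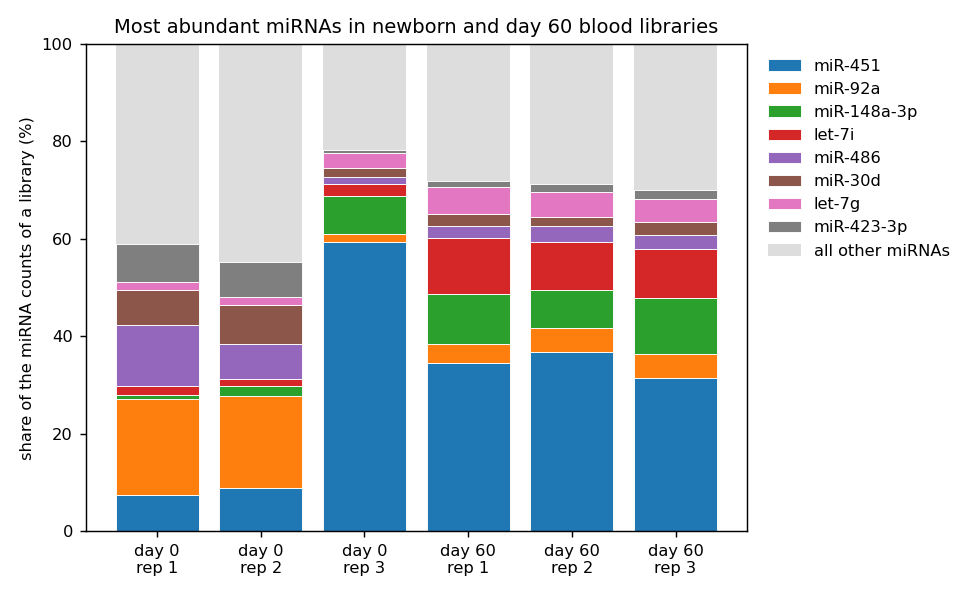
Share of the miRNA counts of a library, in percent, held by the 8 most abundant miRNAs, with 1 stacked bar for each newborn and day 60 library. miR-451 held 59.4% in newborn replicate 3 and 7.47% and 8.97% in the other newborn libraries, against 31.4% to 36.9% at day 60.

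Of the 215 miRNAs with enough counts to be tested, 48 changed between birth and day 60 at a Benjamini-Hochberg adjusted p under 0.05 in edgeR's quasi-likelihood test, which is 22.3%. There were 15 rises (6.98% of those tested) and 33 falls (15.3%). Fold changes beyond 4-fold were found for 34 of them, 7 rises and 27 falls. The rises ranged from 1.38 to 3.59 on the log2 scale and the falls from -1.57 to -7.64. The median log2 fold change of all tested miRNAs was -0.16. The spread was estimated from all 15 libraries, and a fit of the 6 compared libraries alone called 21 of 207 tested (5 rises and 16 falls). In 66 of the 215 (30.7%) the libraries of both ages did not overlap, and 43 of these 66 were among the 48 changed miRNAs: all 15 rises and 28 of the 33 falls.

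Leaving out newborn replicate 3 raised the number of changed miRNAs to 112 of 231 tested (48.5%), with 47 rises (20.3%) and 65 falls (28.1%). This split depended on the scaling and the libraries fitted: it was 31 rises and 78 falls with library totals in place of TMM factors, 52 and 55 with DESeq2 size factors, 58 and 54 with DESeq2, and 64 and 63 in a fit of the compared libraries alone. The 112 calls include 10 of miRNAs not tested before. Among these, miR-323, miR-370, miR-382, miR-432-5p, miR-493-3p, miR-205, miR-615 and miR-2366 passed the filter on counts through newborn libraries, which fixes their direction. They are counted in the 65 falls and the 28.1%. All 48 miRNAs changed with 3 newborn libraries were also called without replicate 3, each in the same direction, and 42 of them had a larger absolute log2 fold change. Replicate 3 was the lowest newborn library for 30 of the 33 falls and the highest for 12 of the 15 rises, so it lay nearer to day 60. Among all tested miRNAs it was the lowest newborn library in 51.2% and the highest in 41.9%. Leaving out newborn replicate 1 or 2 instead left 28 and 30 calls, and 25 of the 48, 8 of them rises, were called in every one of 15 fits that each left out 1 library.

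**Figure D2:**
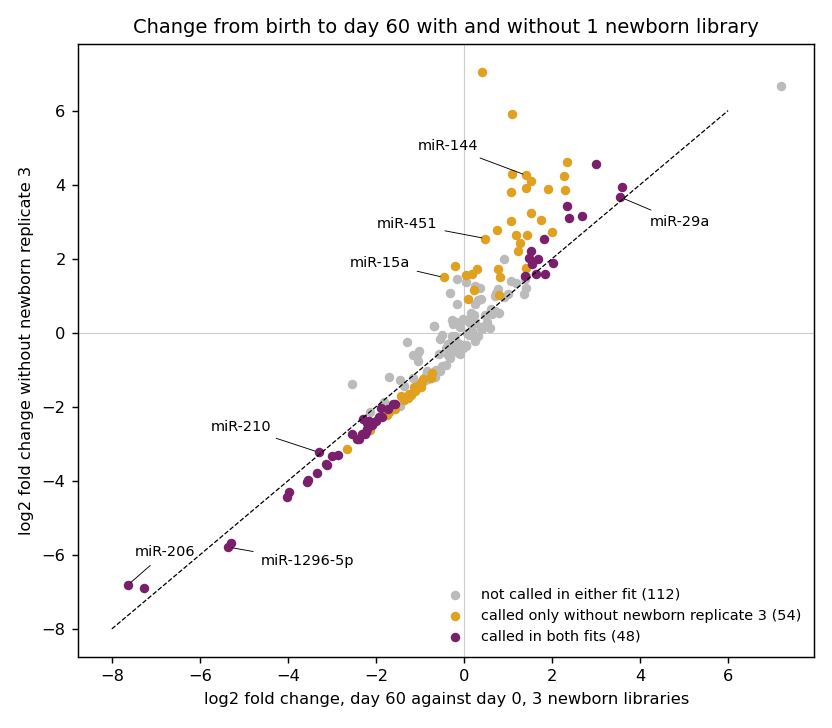
Log2 fold change from day 0 to day 60 of each miRNA tested in both fits, with 3 newborn libraries on the horizontal axis and without newborn replicate 3 on the vertical axis; the dashed line marks equal values. Of the 48 miRNAs called in both fits (purple), 42 had a larger absolute value without replicate 3. Rises such as miR-144 and miR-451 (orange) were called only without replicate 3.

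The let-7 family promotes differentiation and is held low in fetal cells by LIN28 proteins, which block its maturation. Of its 9 tested members, 4 rose, against 6.98% of all tested miRNAs, and none fell. In a fit of the compared libraries alone, let-7f and let-7g did not pass. The 9 include let-7d-3p, the opposite arm of the let-7d hairpin, which also enters the medians, sums and shares of the family. The list's median log2 fold change was 1.28 against -0.16 for all tested miRNAs. With replicate 3 left out, 5 of 9 rose, against 20.3% of all tested, with a median of 1.87 against -0.35. The family's summed level was 47114, 38453 and 69434 normalised CPM (read counts relative to the library total, scaled by TMM factors) in newborns and 195947, 182773 and 187688 at day 60. Every day 60 library was above every newborn library.

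With all newborn libraries let-7i had the largest rise within the family, and without replicate 3 let-7f did. The level of let-7i was 12436, 8843 and 21924.5 normalised CPM in newborns and 97007, 88008 and 92561 at day 60, a log2 fold change of 2.68 ± 0.52 (SE; edgeR adjusted p = 0.00195; 3.16 without newborn replicate 3). let-7f was at 2835, 2345 and 10916 normalised CPM in newborns and at 29247, 23315.5 and 29312.5 at day 60 (2.35 ± 0.54, adjusted p = 0.00521). Newborn replicate 3 carried the highest newborn level of both, and without it the log2 fold change of let-7f was 3.43. let-7d-5p was at 841, 595 and 470 normalised CPM in newborns and at 2546, 2761 and 2389 at day 60, with replicate 3 the lowest newborn library this time (2.01 ± 0.39, adjusted p = 0.00188; 1.87 without replicate 3). let-7g was at 10887, 9256 and 27088 in newborns and at 46886, 45975 and 43561 at day 60 (1.53 ± 0.46, adjusted p = 0.0242). The let-7g call depended on single libraries: its log2 fold change was 2.21 without newborn replicate 3, and the call was lost without newborn replicate 1 (1.35, adjusted p = 0.104), newborn replicate 2 (1.27, 0.122), day 60 replicate 1 (1.54, 0.0527) or day 60 replicate 3 (1.60, 0.0546).

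The other family members did not pass the test with all newborn libraries. let-7a averaged 12973 ± 4504 normalised CPM in newborns and 18604 ± 1261 at day 60 (SD, n = 3). miR-98, which shares the family's seed, passed only without newborn replicate 3 (log2 fold change 2.42, adjusted p = 0.00145). Within the family, let-7a made up 34.97%, 37.9% and 11.4% of the counts in newborns and 9.25%, 11.0% and 9.41% at day 60. let-7i made up 26.4%, 23.0% and 31.6% in newborns and 49.5%, 48.2% and 49.3% at day 60, and these shares did not overlap between ages. Close members of this family differ by few bases and may share reads, which the deposited counts do not resolve.

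miR-29a had the largest rise among miRNAs of at least 50 normalised CPM at either age with all newborn libraries. Without replicate 3 the rises of miR-144, miR-7, miR-142-5p and miR-142-3p, given below, were larger. The miR-29 family represses collagen and DNA methyltransferase messenger RNAs. Levels of miR-29a were 70.0, 80.1 and 88.6 normalised CPM in newborns and 1071, 809 and 923 at day 60. The 3 newborn libraries, replicate 3 included, lay close together and far below day 60, and the means differed 11.7-fold (log2 fold change 3.55 ± 0.43, adjusted p = 9.21e-05; 3.66 without replicate 3). miR-29b was at 1.09, 0.709 and 6.01 normalised CPM in newborns and 35.05, 13.2 and 14.4 at day 60 (2.99 ± 0.90, adjusted p = 0.0248). Without newborn replicate 3 its log2 fold change was 4.55, and its call was lost without newborn replicate 1 (2.65, adjusted p = 0.104), newborn replicate 2 (2.55, 0.11) or day 60 replicate 1 (2.42, 0.088). miR-29c averaged 1.87 ± 2.41 normalised CPM in newborns and 7.05 ± 4.41 at day 60 and passed the test only without replicate 3. In the list of 3 members the median log2 fold change was 2.99, and 3.88 without replicate 3. Pig miR-29a and miR-29b genes neighbour each other on chromosome 18 and a further miR-29b gene neighbours miR-29c on chromosome 9 (assembly Sscrofa11.1).

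The lists were drawn up with earlier results of these data known, so their counts are descriptions. Of the 6 tested miRNAs of the innate immune response list, 4 rose, against 6.98% of all tested miRNAs, and none fell, with a median of 1.61. With library totals in place of TMM factors 2 rose. In a fit of the compared libraries alone, miR-146a-5p, miR-146b and miR-9 did not pass. In the fit without newborn replicate 3, 5 of 6 rose, against 20.3% of all tested (median 1.92). miR-146a-5p, a feedback inhibitor of Toll-like receptor signalling that targets TRAF6 and IRAK1, was at 631, 503 and 937 normalised CPM in newborns and at 2086, 1910.5 and 2005 at day 60. The ages did not overlap (log2 fold change 1.53 ± 0.36, adjusted p = 0.00605; 1.85 without replicate 3). miR-155-5p, made from the BIC transcript in activated lymphocytes and macrophages, was at 58.2, 43.7 and 22.8 normalised CPM in newborns and at 129, 172 and 143 at day 60 (1.83 ± 0.44, adjusted p = 0.00669; 1.58 without replicate 3). Its newborn replicate 3 was the lowest of the 6 libraries. With library totals in place of TMM factors miR-155-5p did not pass (1.47, adjusted p = 0.0664).

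miR-9, known from neurons and induced in monocytes and neutrophils by Toll-like receptor signals, was at 20.8, 21.7 and 59.0 normalised CPM in newborns and at 157, 86.3 and 116 at day 60. Newborn replicate 3 lay nearest to day 60 without overlapping it, and the log2 fold change was 1.82 ± 0.49 (adjusted p = 0.0122; 2.52 without replicate 3). The miR-9 call was lost without newborn replicate 1 (1.59, adjusted p = 0.0668), newborn replicate 2 (1.59, 0.0759) or day 60 replicate 1 (1.60, 0.0513). miR-146b was at 5.25, 5.06 and 8.43 normalised CPM in newborns and at 37.0, 12.6 and 10.6 at day 60 (1.68 ± 0.55, adjusted p = 0.0362; 1.98 without newborn replicate 3). Day 60 replicate 1 was high, and without it the log2 fold change of miR-146b was 0.91 (adjusted p = 0.259). Its call was also lost without newborn replicate 1 (1.59, 0.12) or 2 (1.56, 0.133), or without the day 180 replicate 1 (1.75, 0.0515) or 2 (1.75, 0.0525). The members that did not pass were miR-21, induced in activated leukocytes, at 392, 460 and 3988 normalised CPM in newborns and at 3663, 3093 and 3360 at day 60, and miR-132, at mean levels of 6.96 and 6.36. Newborn replicate 3 had the highest miR-21 level of the 6 libraries. Without it miR-21 passed (3.01, adjusted p = 0.00148).

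Further rises of at least 50 normalised CPM were those of miR-363 and miR-2411. miR-363 belongs to the miR-106a-363 cluster, a paralogue of miR-17-92 on the X chromosome, and was at 619, 428 and 427 normalised CPM in newborns and at 2608, 897 and 1099 at day 60. The log2 fold change was 1.64 ± 0.47 (adjusted p = 0.0176; 1.59 without newborn replicate 3). Day 60 replicate 1 was high, and the call was lost without it (1.05, adjusted p = 0.122) or without newborn replicate 2 (1.57, 0.0811), or with library totals (1.35, 0.0715). miR-2411 was at 11.4, 14.1 and 28.7 normalised CPM in newborns and at 36.7, 55.0 and 59.9 at day 60 (1.48 ± 0.48, adjusted p = 0.0328; 2.01 without newborn replicate 3). Its call was lost in 7 of the 15 fits that left out 1 library: newborn replicates 1 and 2, day 60 replicates 2 and 3, day 180 replicates 1 and 2 and day 360 replicate 1 (adjusted p from 0.053 to 0.134), and with library totals (1.26, 0.0778). The remaining rises, miR-218-5p, miR-22-5p and miR-7139-5p, fell outside the rule for naming or ranked below the 10 largest and were looked at after their values were seen. miR-218-5p was at 0.984, 0.405 and 1.16 normalised CPM in newborns and at 12.5, 12.8 and 5.99 at day 60 (3.59 ± 0.73, adjusted p = 0.00256; 3.93 without newborn replicate 3).

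**Figure D3:**
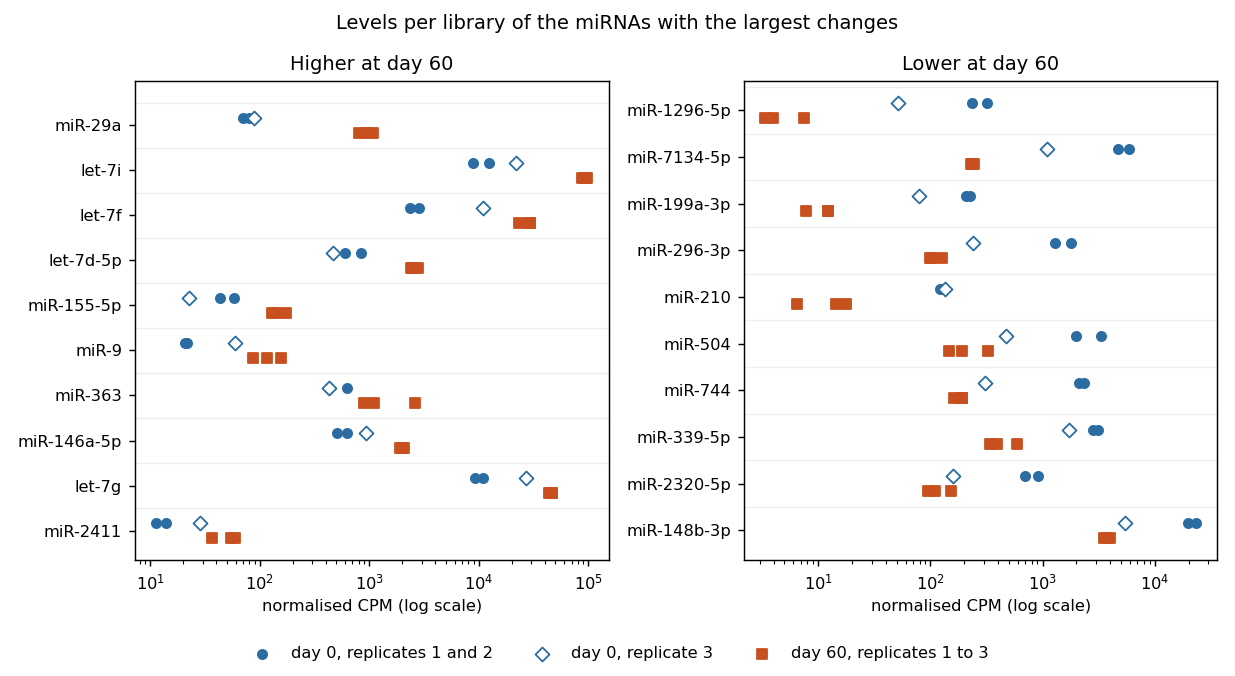
Normalised CPM per library, on a log axis, of the 10 largest rises (left) and 10 largest falls (right) among miRNAs reaching a mean of 50 normalised CPM at day 0 or day 60 without overlap between the ages; circles are newborn replicates 1 and 2, open diamonds newborn replicate 3 and squares the day 60 libraries. For miR-29a and miR-210 newborn replicate 3 (88.6 and 134) lies close to the other newborn libraries. For miR-1296-5p (51.4) and let-7f (10916) it lies apart from them, toward day 60.

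miR-210 fell from newborn levels that lay close together. Hypoxia-inducible factors induce this miRNA directly. Its level was 122, 123 and 134 normalised CPM in newborns and 14.4, 17.6 and 6.42 at day 60. Newborn replicate 3 was the highest of the 6 libraries, and the newborn mean was 9.88 times that at day 60 (log2 fold change -3.30 ± 0.63, adjusted p = 0.00184; -3.23 without replicate 3). At the other ages it averaged 42.1 ± 21.0 normalised CPM (SD, n = 3; day 30), 2.48 ± 0.59 (day 180) and 1.66 ± 1.58 (day 360).

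The human gene of miR-1296-5p lies in an intron of JMJD1C. Among miRNAs of at least 50 normalised CPM at either age, this miRNA had the largest fall. It was at 319, 237 and 51.4 normalised CPM in newborns and at 7.40, 3.92 and 3.37 at day 60 (log2 fold change -5.36 ± 0.72, adjusted p = 0.000159; -5.79 without newborn replicate 3). Replicate 3 was the lowest newborn library and still above every day 60 library. miR-7134-5p was at 5916, 4663 and 1086 normalised CPM in newborns and at 232, 247 and 238 at day 60 (-4.02 ± 0.56, adjusted p = 0.000159; -4.43 without replicate 3). The other arm of its hairpin, miR-7134-3p, was at 27104, 20483 and 3423 in newborns and at 5115, 8241 and 15769 at day 60, so the ages overlapped and it did not pass the test. miR-296-3p, from the imprinted GNAS region in human and mouse, was at 1802.5, 1288 and 241 normalised CPM in newborns and at 99.0, 102 and 126 at day 60 (-3.35 ± 0.63, adjusted p = 0.00184; -3.79 without replicate 3). Newborn replicate 3 was between the other newborn libraries and day 60 for both miR-7134-5p and miR-296-3p.

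miR-744, miR-504 and miR-339-5p, which lie in introns of MAP2K4, FGF13 and C7orf50 in human, followed the same order of libraries. miR-744 was at 2320, 2119 and 309 normalised CPM in newborns and at 164, 193 and 190 at day 60 (log2 fold change -3.12 ± 0.62, adjusted p = 0.00216; -3.58 without newborn replicate 3). miR-504 was at 3335, 1973.5 and 472 in newborns and at 323, 191 and 148 at day 60 (-3.13 ± 0.67, adjusted p = 0.00332; -3.55 without replicate 3). Newborn replicate 1 was high for miR-504, and without it the log2 fold change was -2.44 (adjusted p = 0.0201). miR-339-5p was at 3139, 2792 and 1712 normalised CPM in newborns and at 593, 389 and 338 at day 60 (-2.53 ± 0.46, adjusted p = 0.00143; -2.72 without replicate 3). miR-2320-5p was at 915, 703 and 158 in newborns and at 95.8, 153 and 109 at day 60 (-2.31 ± 0.58, adjusted p = 0.00863; -2.72 without replicate 3). In miR-2320-5p, newborn replicate 3 lay just above the highest day 60 library, and its call was lost without newborn replicate 1 (-1.82, adjusted p = 0.0617).

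miR-148b-3p, which shares its seed with miR-148a-3p and miR-152, was at 19585, 23237.5 and 5443 normalised CPM in newborns and at 4026, 3763 and 3536 at day 60 (log2 fold change -2.09 ± 0.50, adjusted p = 0.00635; -2.48 without newborn replicate 3). miR-148a-3p moved the other way in replicates 1 and 2. It was at 6379, 12300 and 71197 normalised CPM in newborns and at 86853, 68778 and 103748 at day 60, and it passed only without replicate 3 (3.22 ± 0.71, adjusted p = 0.00169). The count ratio of miR-148a-3p to miR-148b-3p was 0.326, 0.529 and 13.1 in newborns and 21.6, 18.3 and 29.3 at day 60. Newborn replicate 3 carried more miR-148a-3p than miR-148b-3p, as the day 60 libraries did, while replicates 1 and 2 carried less. miR-148a-5p averaged 120 ± 20.8 and 93.8 ± 14.7 normalised CPM at both ages and did not pass.

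The mesenchymal and vascular list had 4 falls and no rise among 8 tested miRNAs, against 15.3% falls among all tested, with a median log2 fold change of -2.33. The list had 4 falls and 1 rise among 9 without newborn replicate 3 (median -1.38), against 28.1% falls and 20.3% rises. The rise was that of the endothelial miR-126-5p (1.55, adjusted p = 0.0219; 0.05 with all newborn libraries). miR-199a-3p, abundant in fibroblasts and also found in platelets, was at 208, 223 and 79.6 normalised CPM in newborns and at 12.3, 7.75 and 12.2 at day 60. The ages did not overlap (log2 fold change -3.98 ± 0.59, adjusted p = 0.000248; -4.30 without newborn replicate 3). Because the miR-199b-3p row repeated it, the value may hold reads of either miRNA. miR-199a-5p, from the same hairpin, was at 9.30, 9.92 and 8.24 in newborns and at 2.06, 2.11 and 1.41 at day 60 (-2.29 ± 0.56, adjusted p = 0.007; -2.33 without newborn replicate 3). Newborn replicate 3 was close to the other newborn libraries for miR-199a-5p, and the call was lost without day 60 replicate 3 (-2.02, adjusted p = 0.0515).

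miR-214, encoded beside miR-199a on chromosome 9, was at 62.7, 49.0 and 4.46 normalised CPM in newborns and at 7.503, 7.55 and 7.18 at day 60. Newborn replicate 3 lay below all day 60 libraries, so the ages overlapped (log2 fold change -2.38 ± 0.72, adjusted p = 0.0251; -2.88 without replicate 3). The miR-214 call was lost in 10 of the 15 fits that left out 1 library: newborn replicates 1 and 2, every day 60 and day 180 replicate, day 30 replicate 3 and day 360 replicate 1 (adjusted p from 0.0504 to 0.12). miR-145-5p, the miRNA of smooth muscle, was at 17.6, 34.4 and 5.33 in newborns and at 1.34, 1.71 and 1.85 at day 60 (-3.54 ± 0.85, adjusted p = 0.00635; -3.97 without newborn replicate 3). Newborn replicate 2 was the highest library for miR-145-5p, and without it the log2 fold change was -2.79 (adjusted p = 0.0413). Of the endothelial members, miR-126-3p averaged 167 ± 98.6 normalised CPM in newborns and 139 ± 38.0 at day 60 and did not pass. The summed level of the list was 446, 443 and 445 normalised CPM in newborns and 172, 222 and 150 at day 60, and the part of cells of vessel walls or connective tissue in the samples was not tested.

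The skeletal muscle miRNAs miR-206 and miR-133a-3p fell to 2 counts or fewer per library at day 60. miR-206 had 212, 47 and 445 counts in newborns and 1, 1 and 1 at day 60, and miR-133a-3p, shared with heart muscle, had 141, 50 and 189 counts in newborns and 2, 0 and 0 at day 60. Every newborn library, replicate 3 above the others, was far above every day 60 library. Pooled over libraries, the newborn level of miR-206 was 231 times that at day 60 (95% counting interval 78.6 to 1122) and that of miR-133a-3p 187 times (51.4 to 1548). These intervals cover counting error only. The fitted log2 fold changes were -7.64 ± 1.26 for miR-206 (adjusted p = 0.000601; -6.82 without newborn replicate 3) and -7.27 ± 1.09 for miR-133a-3p (adjusted p = 0.000248; -6.88 without newborn replicate 3, -9.76 without day 60 replicate 1). Both were among 4 tested members of the muscle list, 2 of which fell and none rose (median -4.70), where 15.3% of all tested miRNAs fell. miR-133a-3p passed the filter on counts through newborn libraries, which fixes its direction. Its adjusted p and its place in the list are therefore no support for a fall. The fit without newborn replicate 3 had 2 falls and 1 rise in the list (median -4.48), against 28.1% falls and 20.3% rises of all tested. The cardiac and slow-muscle miR-499-5p averaged 31.3 ± 34.2 normalised CPM in newborns and 71.0 ± 24.8 at day 60, and miR-1 averaged 4.07 ± 1.60 and 0.92 ± 0.67. Neither passed with all newborn libraries, miR-499-5p passed without newborn replicate 3 (2.64, adjusted p = 0.000718), and 3 members fell when library totals replaced TMM factors. miR-206 averaged 0.28 ± 0.30 normalised CPM at day 30, 1.51 ± 1.58 at day 180 and 12.7 ± 6.68 at day 360.

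miRNAs of the imprinted DLK1-DIO3 cluster, which are made from the maternal chromosome and are abundant in fetal tissue and placenta, were low at day 60. The 13 listed members summed to 99.3, 62.1 and 16.7 normalised CPM in newborns and to 2.57, 0.906 and 0.326 at day 60. Most of this sum was miR-127, at 72.5, 44.7 and 12.8 in newborns and at 2.16, 0.805 and 0.326 at day 60. miR-376a-3p and miR-758 were at 0 in all 6 libraries. miR-127 alone was tested with all newborn libraries. It had 663, 442 and 132 counts in newborns and 21, 8 and 3 at day 60 (log2 fold change -5.28 ± 1.07, adjusted p = 0.00243; -5.68 without newborn replicate 3). Its value was -4.66 without newborn replicate 1, -6.18 without day 60 replicate 1 and -4.69 without day 60 replicate 3, each still past the threshold. When replicate 3 was left out, miR-323, miR-370, miR-382, miR-432-5p and miR-493-3p also entered the test. These 5 passed the filter on counts through newborn libraries only, which fixes their direction, so their count is no support for a fall. miR-370 had 160, 90 and 7 counts in newborns and 0, 0 and 0 at day 60.

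Among the remaining list members, falls were found for miR-125a and for both 3p arms of miR-30c (miR-30c-1-3p and miR-30c-3p). miR-125a, expressed in blood stem cells and progenitors, was at 59.2, 41.5 and 3.78 normalised CPM in newborns and at 5.76, 7.15 and 9.03 at day 60. Newborn replicate 3 was the lowest of the 6 libraries (log2 fold change -2.25 ± 0.75, adjusted p = 0.0385; -2.75 without replicate 3). The call held in 2 of 15 fits that left out 1 library, those without newborn replicate 3 and without day 30 replicate 1. In the other 13 the adjusted p lay between 0.0555 and 0.196, and without newborn replicate 1 the log2 fold change was -1.60. With DESeq2 size factors in edgeR it did not pass (-1.96, adjusted p = 0.0618). It was the only faller among 5 tested relatives (miR-99a, miR-99b, miR-100, miR-125a and miR-125b), against 3 falls without newborn replicate 3 and none with DESeq2 size factors (4 of the 5 had an unadjusted p under 0.05 with TMM, and DESeq2 itself called 1). Of all tested miRNAs 15.3% fell with all newborn libraries and 28.1% without replicate 3.

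miR-30c-1-3p was at 47.5, 42.7 and 14.3 normalised CPM in newborns and at 9.76, 10.4 and 11.6 at day 60 (log2 fold change -1.72 ± 0.53, adjusted p = 0.0258; -2.06 without newborn replicate 3). miR-30c-3p was at 13.6, 18.8 and 5.04 in newborns and at 3.70, 1.21 and 3.81 at day 60 (-2.10 ± 0.67, adjusted p = 0.0309; -2.46 without newborn replicate 3). Newborn replicate 3 was the lowest newborn library for both and lay above day 60. Each of these calls was lost in 11 of 15 fits that left out 1 library: all but those without newborn replicate 3, day 30 replicate 1 or 2, or day 180 replicate 3 (adjusted p up to 0.149), and that of miR-30c-3p also with DESeq2 size factors in edgeR (-1.87, adjusted p = 0.0505). The abundant arm miR-30c-5p averaged 2955 ± 2151 normalised CPM in newborns and 3130 ± 529 at day 60. Of the 10 tested arms of the miR-30 family, 2 fell (1 with DESeq2 size factors), near the 15.3% of all tested, and none rose (median -0.24). In the family 4 arms fell without newborn replicate 3 (both 3p arms of miR-30c, miR-30b-3p and miR-30d) and 3 rose (miR-30b-5p, miR-30c-5p and miR-30e-5p), with a median of 0.14. Among all tested miRNAs 28.1% fell and 20.3% rose in that fit.

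The other 14 changed miRNAs were outside the lists and the naming rule, and all of them fell. They were miR-455-3p, miR-9851-3p, miR-149, miR-574, miR-1343, miR-7144-5p, miR-676-3p, miR-34a, miR-331-3p, miR-874, miR-4334-3p, miR-326, miR-505 and miR-532-3p, and they are named here after their values were seen. Their log2 fold changes ranged from -1.57 for miR-532-3p to -3.57 for miR-455-3p, and without newborn replicate 3, where all 14 were called, from -1.91 for miR-505 to -4.03 for miR-455-3p. Only miR-455-3p, miR-149, miR-676-3p and miR-4334-3p kept their call in every fit that left out 1 library. miR-34a, a transcriptional target of p53, was at 6.67, 16.9 and 6.59 normalised CPM in newborns and at 3.39, 1.71 and 1.63 at day 60 (-2.16 ± 0.63, adjusted p = 0.0223; -2.38 without newborn replicate 3). Its ages did not overlap, but newborn replicate 2 was high. The miR-34a call was lost without newborn replicate 2, where the log2 fold change was -1.55, and without day 60 replicate 2 or 3 (adjusted p up to 0.143).

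Without newborn replicate 3, 64 further miRNAs passed the test, 32 rises and 32 falls, of which 10 had not been tested before. miR-142-5p and miR-142-3p, made in nearly all blood cells, were among them. miR-142-5p was at 25.2, 36.4 and 486 normalised CPM in newborns and at 506, 643 and 414 at day 60 (log2 fold change without replicate 3 of 4.10 ± 0.47, adjusted p = 1.69e-05; with it 1.51, adjusted p = 0.176). miR-142-3p was at 6.67, 8.40 and 111 in newborns and at 132, 149 and 55.6 at day 60 (without replicate 3 3.92 ± 0.98, adjusted p = 0.00397; with it 1.42, 0.324). For both arms newborn replicate 3 lay within the range of day 60.

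miR-144, the partner of miR-451 in a GATA1-driven cluster, was at 6.67, 3.75 and 97.6 normalised CPM in newborns and at 118, 128 and 43.1 at day 60 (without replicate 3 4.25 ± 0.81, adjusted p = 0.000652; with it 1.42, 0.303). miR-451 was at 52808, 52420 and 538674 in newborns and at 292052, 324808 and 285896 at day 60 (without replicate 3 2.55 ± 0.46, adjusted p = 0.000492; with it 0.49, 0.704). miR-486, from the ankyrin 1 gene, was at 88516, 41657 and 13449 in newborns and at 20819, 27327 and 25146 at day 60, and it fell without replicate 3 (-1.37 ± 0.42, adjusted p = 0.0138; with it -0.97, 0.214). Newborn replicate 3 was beyond the day 60 range for miR-451 and miR-486, on the side away from the other newborn libraries. Without it, 2 of the 6 erythroid miRNAs rose and 1 fell (median 1.67), against 20.3% rises and 28.1% falls of all tested. With replicate 3 none passed (median 0.69, none at an unadjusted p under 0.05 in edgeR and none by DESeq2). miR-182 averaged 72.0 ± 11.5 normalised CPM in newborns and 162 ± 22.2 at day 60, without overlap, and did not pass in either fit.

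miR-7, known from brain and pancreatic islets, was at 2026, 2051 and 19047 normalised CPM in newborns and at 35523, 38176 and 38844 at day 60. All day 60 libraries were above all newborn libraries, but the spread among newborns kept it from passing (log2 fold change 2.28, adjusted p = 0.0737; without replicate 3 4.23 ± 0.79, adjusted p = 0.000626). Falls called only without replicate 3 included miR-181a, a lymphocyte miRNA that sets the sensitivity of the T cell receptor, at 21350, 15208 and 1583 normalised CPM in newborns and at 4510, 4154 and 4205 at day 60 (-2.06 ± 0.38, adjusted p = 0.000626; with it -1.57, 0.0915). miR-423-3p was at 55558, 42691 and 5263.5 in newborns and at 10500.2, 15039 and 17246 at day 60 (-1.75 ± 0.37, adjusted p = 0.00148; with it -1.27, 0.141). Newborn replicate 3 lay below all day 60 libraries for both. miR-92a (-1.58, adjusted p = 0.00326), miR-7137-3p (-2.21, 0.00532), miR-7139-3p (-2.15, 0.00681) and miR-30b-3p (-1.81, 0.00305) also fell without replicate 3. For miR-15a leaving out replicate 3 turned the sign. It was at 57.9, 36.5 and 441 normalised CPM in newborns and at 192, 119 and 77.5 at day 60 (-0.46, adjusted p = 0.74 with replicate 3; 1.49, adjusted p = 0.0494 without it).

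The lists of white cell and platelet miRNAs had few calls with all newborn libraries. Of 9 lymphoid miRNAs only miR-155-5p passed, where 22.3% of all tested passed. The list's median of -0.12 was 0.08 with DESeq2 size factors and -0.49 with library totals, when miR-155-5p did not pass either. When replicate 3 was left out miR-155-5p rose and miR-181a fell (median -0.34), against 20.3% rises and 28.1% falls of all tested. miR-150, the miRNA of mature lymphocytes, averaged 1189 ± 758 normalised CPM in newborns and 1572 ± 323.5 at day 60, and miR-28-3p averaged 1339 ± 788 and 712 ± 329. The lymphoid sum was 27364, 20218 and 3453 normalised CPM in newborns and 7915, 7876 and 9177 at day 60, led by miR-181a. None of 5 myeloid miRNAs passed (median 0.13, and -0.19 with library totals; DESeq2 called 1, miR-24-1-5p, which also had the only unadjusted edgeR p under 0.05). miR-24-1-5p rose in edgeR without newborn replicate 3 (1.75, adjusted p = 0.0243; list median 0.34). miR-24-3p averaged 1174 ± 687 and 991 ± 718 normalised CPM, miR-23a 542 ± 150 and 573.5 ± 256, and miR-27a 236 ± 56.5 and 258 ± 86.4. Among 10 platelet miRNAs 2 fell, near the 15.3% of all tested, and these were the arms of miR-199a (list median -0.20). The same arms fell without newborn replicate 3, and miR-126-5p rose (median -0.32), against 28.1% falls and 20.3% rises of all tested. miR-151-3p averaged 13498 ± 3386 and 12659 ± 8530 normalised CPM, miR-221-3p 644 ± 142 and 586 ± 25.1, and miR-222 234 ± 103 and 219 ± 31.1.

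The remaining lists had no further call with all newborn libraries. In the list of the miR-17-92 cluster and its paralogues, 1 of 11 rose with all newborn libraries (miR-363), where 6.98% of all tested rose. The list median was 0.76, and library totals gave no call. Without newborn replicate 3 the list had 6 rises and 1 fall, against 20.3% rises and 28.1% falls of all tested. miR-17-5p averaged 574.5 ± 469 and 976 ± 240 normalised CPM. None of the 3 tested miR-15/16 miRNAs passed, in edgeR (none at an unadjusted p under 0.05) or in DESeq2: miR-15b averaged 8410 ± 4857 and 5118 ± 1542, and miR-16 4296 ± 4409 and 4419 ± 2395. When replicate 3 was left out miR-15a rose and miR-15b fell (-1.08, adjusted p = 0.0126). In the HOX loci list, none of 4 passed in edgeR (3 at an unadjusted p under 0.05) or in DESeq2, with a median of 1.18: miR-10a-5p averaged 99.2 ± 6.94 and 198 ± 99.3, miR-10b 23.8 ± 6.50 and 11.6 ± 2.93. miR-615, which passed the filter through newborn libraries with at most 12 counts, was called lower without newborn replicate 3 (-3.70, adjusted p = 0.00537). The count ratio of miR-10a-5p over miR-10b was 4.07, 5.77 and 3.32 in newborns and 11.1, 18.04 and 20.7 at day 60, with no overlap, a pair picked after the values were seen. miR-99a averaged 3276 ± 92.2 and 6187 ± 1395 and miR-125b 342 ± 225 and 157 ± 40.6. The brain list had 1 rise among 5 (miR-9; 2 with library totals, 3 by DESeq2), and 2 among 6 without newborn replicate 3 (miR-7 and miR-9). Among all tested, 6.98% rose with all newborn libraries and 20.3% without replicate 3. miR-128 averaged 2724 ± 52.5 and 4159 ± 373. miR-122, the hepatocyte miRNA, averaged 3.81 ± 1.54 and 10.2 ± 3.92, and miR-192, of liver and gut, 58.8 ± 62.9 and 66.8 ± 10.5, without a call (none at an unadjusted p under 0.05 in edgeR, none by DESeq2). miR-192 rose without newborn replicate 3 (1.60, adjusted p = 0.0372; 0.18 with all newborn libraries). Of epithelial miRNAs, miR-429 had at most 1 count in any library and miR-205 averaged 2.05 ± 1.92 and 0.340 ± 0.249, so neither was tested with all newborn libraries. miR-205 passed the filter without replicate 3, through newborn libraries, and was called lower (-2.83, adjusted p = 0.0197). miR-30d averaged 38412 ± 18590.5 and 20279 ± 3794 and miR-30a-5p 2627 ± 1066 and 2568 ± 764.

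**Figure D4:**
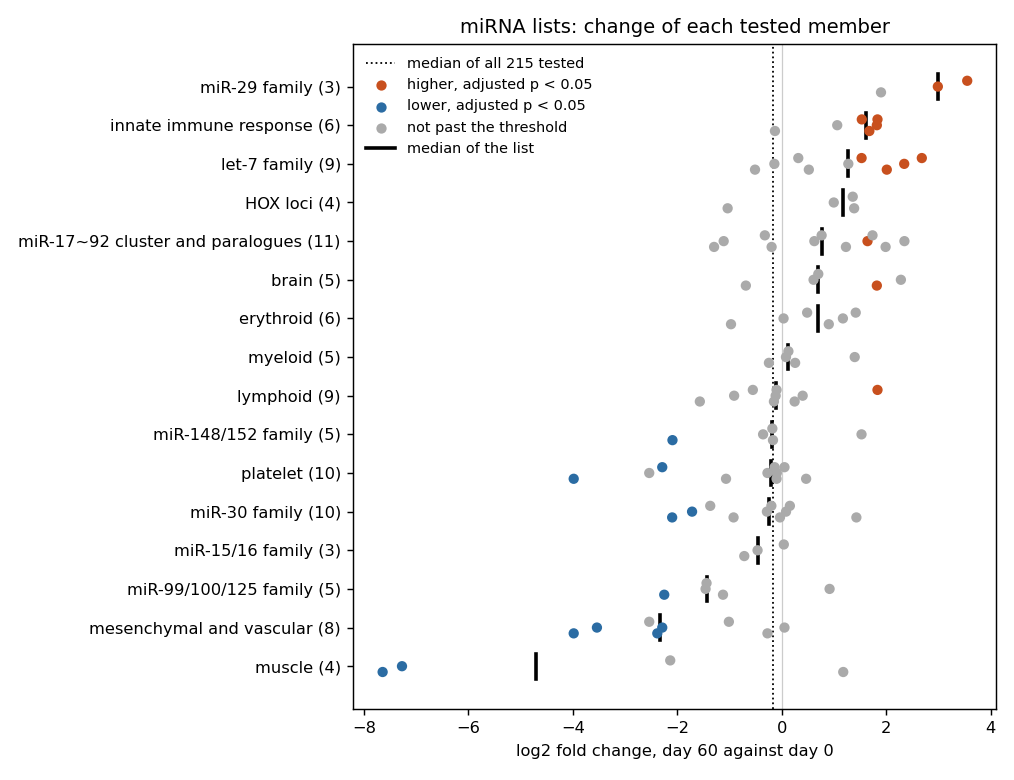
Log2 fold change from day 0 to day 60 of each tested member of 16 miRNA lists, with the number of members tested in brackets, the list median as a black bar and the median of all 215 tested miRNAs as a dotted line; coloured points passed the adjusted threshold. Medians run from -4.70 for the muscle list to 2.99 for the miR-29 family, and lists with under 3 tested members are left out.

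The arms of a hairpin did not always change together. Both arms were tested for 35 hairpins. Both were called for 1 hairpin (miR-199a), 1 arm was called for 11 and neither for 23, and no hairpin had calls in opposite directions. The log2 fold changes of both arms had the same sign in 21 hairpins and opposite signs in 14, with a median absolute difference of 1.16. The count ratio of the 5p to the 3p arm, which needs no scaling between libraries, did not overlap between ages in 13 of the 35 (37.1%), 8 with a higher and 5 with a lower ratio at day 60. With 3 libraries against 3, an exact two-sided permutation test cannot give a p below 0.1, so these ratios are descriptions.

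For miR-339 the 5p arm had 71.2, 90.1 and 106 times the counts of the 3p arm in newborns and 13.4, 8.90 and 10.8 times at day 60. All newborn libraries, replicate 3 included, were far above day 60. The 3p arm stayed at 44.1, 31.0 and 16.1 normalised CPM in newborns and 44.3, 43.7 and 31.2 at day 60, while the 5p arm fell. For miR-7134 the same ratio was 0.218, 0.228 and 0.317 in newborns and 0.0453, 0.0300 and 0.0151 at day 60. For miR-22 it was 0.00752, 0.00714 and 0.0268 in newborns and 0.0420, 0.106 and 0.0620 at day 60, where the minor arm miR-22-5p rose (log2 fold change 2.38 ± 0.51, adjusted p = 0.00332; 3.11 without newborn replicate 3) and miR-22-3p averaged 662 ± 183 and 689 ± 190 normalised CPM. miR-7139-5p rose (1.38 ± 0.44, adjusted p = 0.03; 1.53 without newborn replicate 3) at 132, 136 and 168 in newborns and 325, 334 and 478 at day 60, and the miR-7139 ratio was 0.657, 0.909 and 5.99 against 11.8, 8.23 and 10.1. The miR-7139-5p call was lost in 7 of the 15 fits that left out 1 library: newborn replicates 1 and 2, day 60 replicate 3, day 30 replicate 3, day 180 replicates 1 and 2 and day 360 replicate 1 (adjusted p up to 0.112). Newborn replicate 3 had the newborn ratio nearest to day 60 for miR-22 and miR-7139, but the farthest for miR-339 and miR-7134.

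**Figure D5:**
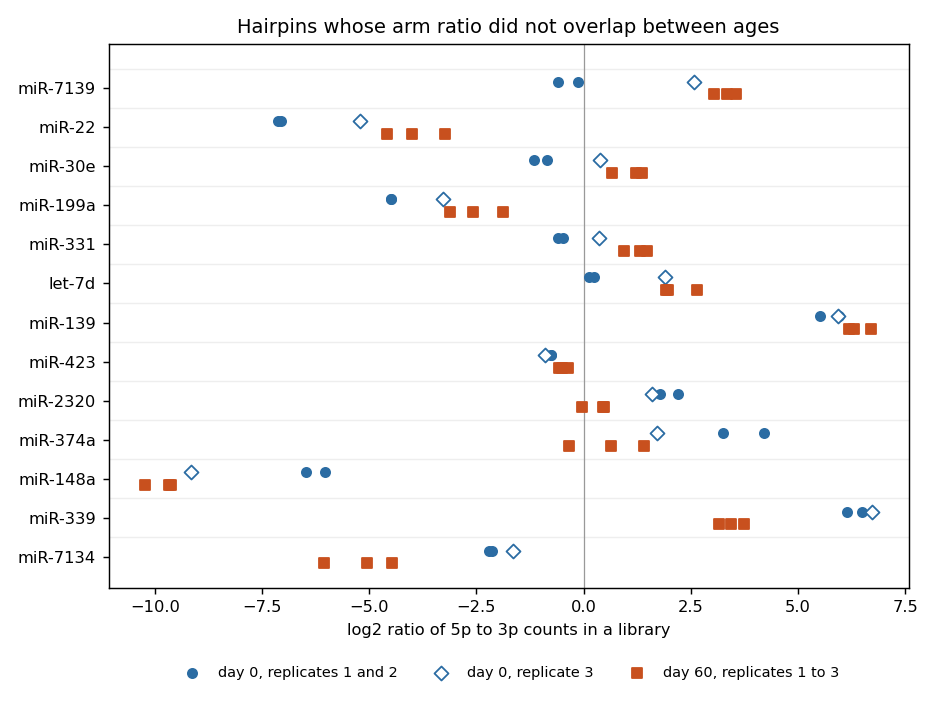
Log2 ratio of 5p to 3p counts in each library for the 13 hairpins of 35 whose ratios did not overlap between ages; circles are newborn replicates 1 and 2, open diamonds newborn replicate 3 and squares day 60. miR-339 lies at 6.15, 6.49 and 6.73 in newborns and at 3.74, 3.15 and 3.44 at day 60, and miR-7134 at -2.20, -2.14 and -1.66 against -4.46, -5.06 and -6.05.

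Neighbouring miRNA genes were compared by their order in assembly Sscrofa11.1, where 202 of the 215 tested miRNAs could be matched by name. Genes less than 10000 bases apart formed 27 clusters with at least 2 tested miRNAs, of which 15 had all members on 1 side of 0 and 10 held a call. Of all 215 tested, 124 values were below 0 and 91 above, and 22.3% were called. Many clusters had only 2 or 3 tested miRNAs, so these counts are descriptions. Some miRNAs, such as miR-16 and let-7f, entered 2 clusters, and miR-181a with miR-181b formed 2 with the same values. In the cluster of miR-199a and miR-214 on chromosome 9 all 3 tested miRNAs fell. In that of let-7a, let-7f and let-7d on chromosome 3 all 4 values were above 0 and 2 passed. In that of miR-143 and miR-145 on chromosome 2, miR-145-5p fell and miR-143-3p averaged 31.2 ± 17.1 and 15.5 ± 5.82 normalised CPM without passing. In the cluster of miR-30c-1 and miR-30e on chromosome 6 values ran from -1.72 for miR-30c-1-3p to 1.43 for miR-30e-5p. miR-30c-3p (-2.10) was matched there by a name without a copy number and may come from another miR-30c gene. Copies of a mature miRNA from several genes, such as let-7a, let-7f and miR-29b, cannot be assigned to 1 of them.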

How the data were processed

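Small RNA reads of 15 pig blood libraries were counted by the authors. A mirVana kit and Illumina chemistry were used for RNA and libraries, per the labels' protocols. CASAVA 1.8.2 and HISAT2 2.0.4 are named, without their roles, in the submitters' processing notes; the sources used here give no counting tool, annotation or genome build. A label of polyA RNA for the molecule was disregarded. The deposited read counts are whole numbers per mature miRNA. Each deposited TPM value is its count divided by a library-wide total, which exceeds the listed counts by 0.0173% to 0.353%, and served only as an alternative. Not analysed here were let-7b and miR-223, and mature sequences were not used, so miRNAs were not grouped by seed.

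Tests were run in edgeR 4.0.16 (R 4.3.3). Its default expression filter, with ages as groups, at least 10 counts and a total of at least 15, kept 215 of 293 miRNAs, and libraries were scaled with TMM factors, 1.10 to 1.71 in newborns and 1.10 to 1.18 at day 60. All 15 libraries entered a quasi-likelihood model with a term for each age, and the contrast of day 60 minus day 0 was tested. Benjamini-Hochberg adjustment covered all miRNAs tested, with a threshold of 0.05. The fit was repeated without newborn replicate 3, filtered and scaled anew. Standard errors follow from each fold change and F statistic. A count of 0 allows up to 3 counts, 0.291 to 0.328 normalised CPM in these 6 libraries, counting error only; no molecular identifiers are mentioned in the sources used here. The test was tried on simulated counts.

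The text names called miRNAs with the 10 largest rises and 10 largest falls of at least 50 normalised CPM at day 0 or 60 whose libraries did not overlap, the 5 most abundant, every called member of 19 lists and up to 3 abundant members of each, and up to 5 rises and 5 falls of at least 50 normalised CPM called only without newborn replicate 3. Others named were chosen after their values were seen. The comparison, the lists and the tests were chosen with earlier results of these data known. Lists are described by counts and medians only. Alternatives were DESeq2 1.42.0, DESeq2 size factors or library totals in edgeR, a filter of 10 CPM in 3 libraries, no filter, limma 3.58.1 on log2(TPM + 1), voom with library quality weights, only the 6 libraries of both ages, a replicate block, leaving out miRNAs over 10% of any library, and leaving out each library.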

Additional observations from a re-analysis of the deposited data

How the results depend on the processing

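With all newborn libraries the number of changed miRNAs was 21 (5 rises, 16 falls) in a fit of the 6 libraries of both ages alone, and 131 (59 rises, 72 falls) with voom and library quality weights, where newborn replicate 3 had a weight of 0.0893. Leaving out 1 library at a time gave 28 to 112 calls, 8 to 47 rises and 19 to 65 falls. The lowest count was without newborn replicate 1 and the highest without newborn replicate 3. The other alternatives gave 34 to 55 calls. Without newborn replicate 3, leaving out a further library gave 75 to 122 calls, 27 to 52 rises and 48 to 71 falls, and no alternative moved the total of 112 by more than 1.5 times. Its 47 rises and 65 falls became 31 and 78 with library totals and 29 and 85 with limma on TPM, and 39 and 43 with a filter of 10 CPM in 3 libraries. A further loss of newborn replicate 1 or 2 left 27 and 28 rises, with 1 newborn library assumed to vary like the other groups. Scaling moved the median log2 fold change of all tested miRNAs from -0.16 with TMM to -0.00 with DESeq2 size factors and -0.49 with library totals. The labels do not say whether the replicate numbers pair the libraries. The correlations of deviations of same-numbered libraries from the mean of their age were -0.0946, 0.0545 and -0.373. With 3 libraries per age, and newborn replicate 3 far from the others, these correlations cannot decide it. With the replicate block 42 miRNAs changed (14 rises, 28 falls), and 117 without newborn replicate 3. Over 31 named changes and their 770 alternative values, 665 stayed past the threshold, 105 did not and 0 changed sign, and 15 of the 31 kept their call throughout. In the fit of the 6 libraries alone, let-7f (2.30, adjusted p = 0.0864), miR-146a-5p (1.56, 0.0617) and miR-148b-3p (-1.97, 0.0617) did not pass. The calls of let-7g, miR-29b, miR-9, miR-146b, miR-363 and miR-2411 were also lost in that fit. So were those of miR-125a, miR-214, miR-2320-5p, miR-30c-1-3p and miR-30c-3p. Calls on low counts are the least certain: 23 of the 48 changed miRNAs were under 50 normalised CPM at both ages. The cause of these differences was not tested.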

Other observations

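The 78 miRNAs that were not tested had at most 160 counts in any of the 6 libraries. Of these, 26 were at 0 in every day 60 library, 10 were at 0 in every newborn library and 7 were in both sets. The DLK1-DIO3 miRNA miR-370, with 160 counts in newborn replicate 1, held that highest count.

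miR-7136-5p was uneven at day 60, with 183, 1 and 444 counts, against 2, 2 and 0 in newborns, and it did not pass (edgeR adjusted p = 0.0523). miR-32 was at 0 in newborn replicates 1 and 2 and at 4.26 normalised CPM in newborn replicate 3, against 2.36, 2.42 and 0.979 at day 60. miR-135 was also at 0 in newborn replicates 1 and 2 and at 1.16 in replicate 3, against 0.617, 1.11 and 0.871 at day 60. Both passed without newborn replicate 3, where the fitted fold change depends on the prior count and is not given.

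The 5 miRNAs above 10% of the counts of any library of the series were miR-451, miR-148a-3p, miR-92a, let-7i and miR-486. The count ratio of miR-451 to miR-486 was 0.597, 1.26 and 40.1 in newborns and 14.03, 11.9 and 11.4 at day 60. That of miR-451 to its cluster partner miR-144 was 7916, 14000 and 5520 in newborns and 2473, 2545 and 6634 at day 60, and the ages overlapped.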
